A study of Mus musculus with 20 samples.

Results

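CD8 T cells stimulated together with type I interferon were followed from 48 h to 72 h of culture, on 4 of the 20 arrays of the study. These were the 3 arrays of cells given antigen, B7-1 and interferon (Ag-B7+IFNa/b) at 48 h and the 1 array of the same culture condition at 72 h. The comparison covered all 8251 genes named by a single symbol on the array, and a gene was counted as shifted when its 72 h value lay outside the range of the 3 arrays at 48 h. The lone 72 h array had no replicate, so its values are a description of 1 library.

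The cells were CD8 T lymphocytes of OT-1 TCR transgenic mice, whose T cell receptor recognises an ovalbumin peptide on H-2Kb, of strain C57Bl6 at 6 to 8 weeks of age. CD44-low CD8 cells had been isolated from lymph nodes by removing other cells, and were cultured on latex beads that carried the peptide complex and B7-1. Human IL-2 was in every culture, and universal type I IFN was the agent added here. Related cultures held Ag-B7 alone or with murine IL-12 (4 and 3 arrays at 48 h, 1 array each at 72 h), and 3 arrays came from naive cells before culture. The labels called the replicates biological and did not say whether animals were pooled.

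Type I interferon binds a receptor of the chains Ifnar1 and Ifnar2 and acts through the kinases Jak1 and Tyk2 and STAT factors, which switch on antiviral genes through promoter elements called ISREs. In CD8 T cells it also serves as a further signal, beside antigen and costimulation, for effector function and memory. Activated T cells first grow, making ribosomes under the transcription factor MYC, and divide rapidly, and later slow down while surface receptors for homing and survival return.

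Values are log2 of the deposited intensity plus a constant of 46.4, so a step of 1 is a doubling, and a change of a dim gene is understated. On this scale 5006 of the 8251 genes lay outside the 48 h range at 72 h, which is 60.7% of them. Above the range were 2897 genes (35.1%) and below it 2109 (25.6%). The range of 3 arrays is narrow, so most genes left it by little. Among the 6279 genes bright enough to be tested, 4078 (64.9%) lay outside, by a median of 0.30, and 776 of them by under 0.1. Only 177 genes (2.82%) lay above the range by at least 1 log2 unit and 128 (2.04%) below it by as much.

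The test was a limma fit over 16 arrays, in which the lone 72 h array was assumed to vary like the replicated groups. With Benjamini-Hochberg adjustment over 6279 genes it called 104 genes at 72 h against 48 h (1.66%), 43 higher (0.685%) and 61 lower (0.971%). All 104 lay outside the 48 h range, and 888 genes (14.1%) had an unadjusted p under 0.05. The 43 rises were 1.15 to 3.70 log2 units in size and the 61 falls 0.96 to 2.62. The count depended on each array at 48 h. Without replicate 1 the limma calls were 5 higher and 8 lower, without replicate 2 they were 7 and 7, and without replicate 3 they were 8 and 8. Without the 3 naive arrays, which had the widest spread, they were 129 higher and 184 lower. With median centring of the arrays they were 2 higher and 6 lower, with scaling to spiked-in controls 3 and 0, and with variances fitted without a trend 2 and 2. Among the 33 called genes named here, 6 kept their limma call whichever 48 h array was left out: Srm, Nme1 and Polr2l, which fell, and Pik3r1, Smpdl3a and Tnfaip3, which rose. Of the 33, 27 lost the call with median centring, 31 with spiked-in controls, 30 without the trend and 14 when all probe sets of a gene were averaged. The direction of all 33 was the same in each of the 16 other settings run, but many of these could not change it. The filters, the trend and the naive arrays do not enter the difference. Each 72 h value lay outside all 3 arrays at 48 h, so leaving out 1 of them or changing the constant cannot reverse it.

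**Figure D1:**
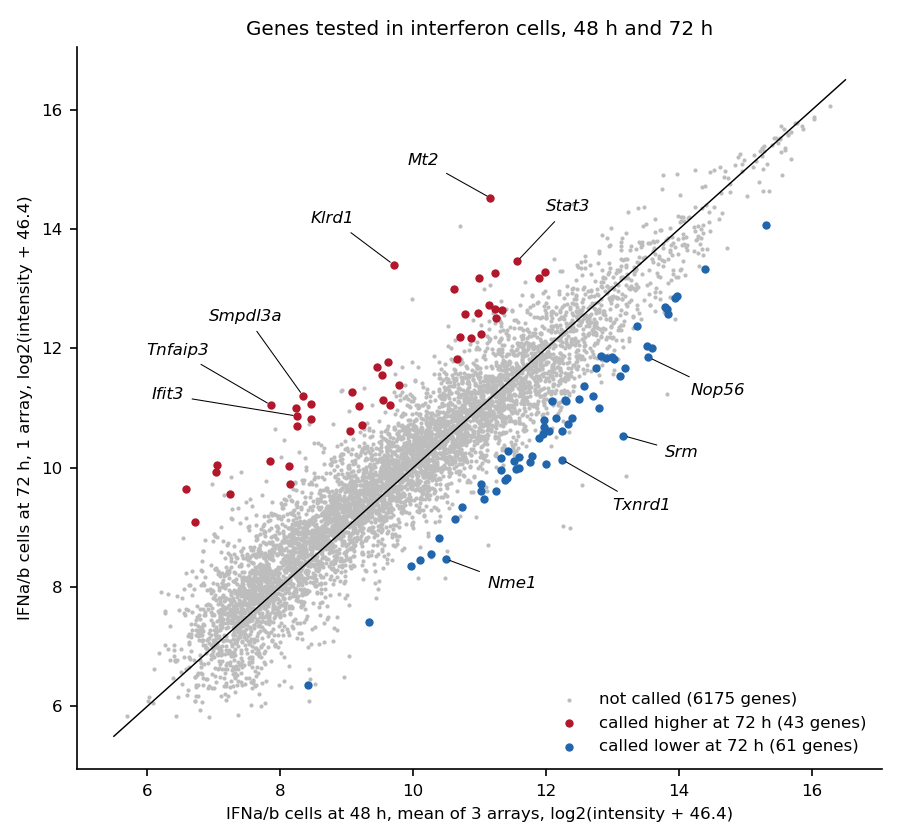
Each point is 1 of the 6279 tested genes, with the mean of the 3 interferon arrays at 48 h on the horizontal axis and the single array at 72 h on the vertical axis, both as log2(intensity + 46.4). The 43 genes called higher (red) and 61 called lower (blue) lie on either side of the line of equal values, and Srm goes from a mean of 13.16 to 10.54.

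Among all cellular programmes examined, the machinery that builds ribosomes had the largest number of called genes. Of 39 tested genes of ribosome biogenesis and MYC targets, 31 lay below the 48 h range (79.5%, beside 27% of all tested genes) and 4 above it (10.3%, beside 38%). The limma fit called 10 of the 39 lower and 0 higher, beside 0.971% and 0.685% of all tested genes. The median difference was -0.75, beside 0.10 over all tested genes. The called members were Srm, Nme1, Gnl3, Nop56, Bop1, Rrs1, Apex1, Gar1, Fbl and Nop10. In this and every other list, fewer cells of a type and less RNA per cell cannot be told apart on arrays of whole cultures.

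Srm encodes spermidine synthase, which makes the polyamine spermidine needed by growing cells, and is a known MYC target. It read 13.20, 13.16 and 13.13 on the 3 arrays at 48 h and 10.54 at 72 h, after 14.09 at 24 h and a mean of 10.39 in naive cells. The 48 h arrays lay close together and the 72 h array stood far below them, near the naive mean. The fall was 6.16-fold (log2 difference -2.62 ± 0.32, limma standard error, adjusted p = 0.00235), and limma kept it in 15 of 16 other settings. Nme1, a nucleoside diphosphate kinase, read 10.50, 10.47 and 10.50 at 48 h and 8.47 at 72 h, a 4.06-fold fall (-2.02 ± 0.31, limma adjusted p = 0.0108). Its dimmer probe set differed by only -0.38, and with the mean of both the difference was -1.20 and the call was lost (limma adjusted p = 0.101). Gnl3, the nucleolar GTPase nucleostemin, read 11.67, 11.96 and 12.37 at 48 h and 10.05 at 72 h (-1.95 ± 0.38, limma adjusted p = 0.0226).

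Most of the remaining called members act in the nucleolus. Apex1, a DNA repair endonuclease, is an exception, and read 12.32, 11.77 and 11.82 at 48 h and 10.67 at 72 h. Nop56, a core protein of the box C/D particles that guide methylation of ribosomal RNA, read 13.38, 13.61 and 13.62 at 48 h and 11.85 at 72 h, but its dimmer probe set differed by only -0.75, and the mean of both was not called (-1.22, limma adjusted p = 0.121). Fbl, fibrillarin, the methyltransferase of the same particles, went from 14.03, 13.97 and 13.80 to 12.84. Gar1 and Nop10, proteins of the H/ACA particles that guide pseudouridine formation, fell by 1.16 and 1.08. Bop1 and Rrs1, assembly factors of the large ribosomal subunit, fell by 1.59 each. Nop2, an RNA methyltransferase of the same subunit, read 12.04, 12.21 and 11.99 against 10.37, but its limma adjusted p was 0.0868. No 48 h array of any of these genes overlapped the 72 h value.

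Myc, the gene of MYC itself, read 12.29, 12.36 and 12.97 at 48 h and 12.15 at 72 h, 0.14 below the lowest 48 h array, with a difference of -0.39 ± 0.52 (limma adjusted p = 0.845). Its partner Max lay inside the range, at 11.67. The members above the range were Eif4a1, by 0.08, and 3 genes of the MXD family, whose proteins compete with MYC for MAX and repress its targets. Mxd4 went from 7.74, 8.09 and 7.95 to 10.65, Mxi1 lay 1.10 above its highest 48 h array, and Mxd1 went from 6.43, 6.18 and 6.03 to 7.92. These 3 shifts of 2.72, 1.43 and 1.70 were not called (limma adjusted p = 0.0978, 0.164 and 0.439). Of 21 tested ribosomal protein genes, the products that these factors assemble, 15 lay inside the 48 h range. Of all 6279 tested genes 2201 lay inside theirs. The median difference of the 21 was 0.00 and limma called 0, where it called 1.66% of all tested genes. The count inside the range held only for the values as deposited. With quantile normalization 11 of the 21 genes lay above the range and 1 below, and with median centring 2 and 12. With spiked-in controls 14 of these genes lay above and 0 below. Rpl22 stood apart from them at 2.30 (limma adjusted p = 0.240), but its other probe set differed by only 0.31.

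E-boxes are the short motif to which MYC and MAX bind, and the promoter of Nme1, the largest called fall in the list with a promoter in the RefSeq table (build GRCm38.p6), holds one. That table holds another Nme1 promoter, not printed, with an E-box 29 bases before its start. Printed here are the 250 bases before the start site at chr11:93968273-93968522, minus strand. The E-box is in capitals, 18 bases before the start.
Nme1 promoter: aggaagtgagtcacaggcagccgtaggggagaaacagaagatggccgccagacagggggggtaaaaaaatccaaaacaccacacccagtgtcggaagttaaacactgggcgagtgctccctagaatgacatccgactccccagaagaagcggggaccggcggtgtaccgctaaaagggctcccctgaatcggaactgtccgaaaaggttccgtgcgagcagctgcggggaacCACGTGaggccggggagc
The motif searched was CACGTG, which reads the same on both strands. It occurred in 9 of the 33 tested list genes with a promoter in the table (27.3%). The share was 10.4% of all tested genes with a promoter and 6.86% of all 27025 genes in the table. The list holds MYC targets by design, so its share does not bear on the shift at 72 h. Among the called list members the E-box was in 2 of 6 with a promoter, and neither Gnl3 nor Nop56 held it. Srm was not matched to a promoter. A match describes the letters and does not show binding.

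Genes that respond to interferon were mostly higher at 72 h, but few passed the test. Of 41 tested interferon-stimulated antiviral genes, 27 lay above the 48 h range (65.9%, beside 38% of all tested genes) and 6 below it (14.6%, beside 27%). Limma called 1 higher, Ifit3, and 0 lower, beside 0.685% and 0.971% of all tested genes. The median difference was 0.56. The median stayed positive with 3 other scalings: 0.54 for quantiles, 0.35 for median centring and 0.76 for spiked-in controls.

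Ifit3, an interferon-induced protein that blocks viral replication together with its relative Ifit1, read 7.95, 8.18 and 8.64 at 48 h and 10.87 at 72 h. The mean in naive cells was 10.09. The 24 h array read 7.71, so the 72 h array was the only interferon array above 9. The rise was 6.10-fold (2.61 ± 0.55, limma adjusted p = 0.0302), and it lost its call when any 1 of the 3 arrays at 48 h was left out. Its neighbours in the family shifted the same way without a call: Ifit2 went from 8.52, 8.36 and 8.95 to 10.38 and Ifit1 from 8.99, 9.41 and 9.79 to 10.61. Probe sets of the Ifit relatives may not tell these genes fully apart.

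The promoter of Ifit3 is shown because this gene was the largest called rise of the antiviral list, and it was searched for letters like those of an ISRE. The 250 bases before its start at chr19:34583279-34583528, plus strand, from RefSeq on GRCm38.p6, hold 2 ISRE-like matches, 156 and 122 bases before the start, in capitals.
Ifit3 promoter: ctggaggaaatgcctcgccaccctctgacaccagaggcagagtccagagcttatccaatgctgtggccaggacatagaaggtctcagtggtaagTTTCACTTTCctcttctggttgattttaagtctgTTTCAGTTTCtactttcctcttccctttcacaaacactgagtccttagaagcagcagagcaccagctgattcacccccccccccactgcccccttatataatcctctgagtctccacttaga
The motif searched was GAAA, any 2 bases and GAAA again, on both strands, and both matches lie on the strand opposite to the one printed. It was found in 11 of 34 tested list genes with a promoter in the table (32.4%). The share was 3.26% of all tested genes with a promoter and 3.46% of all genes in the table. The list holds interferon-stimulated genes by design, so its share does not bear on the shift at 72 h. As for the E-box, a match does not show binding, and its part in the rise was not tested.

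Other antiviral genes went different ways. Usp18, a protease that removes ISG15 from proteins and restrains the interferon receptor, read 12.84, 12.33 and 11.53 at 48 h and 13.29 at 72 h (difference 1.06 ± 0.62, limma adjusted p = 0.499). Sp100, a nuclear body protein, went from 10.30, 10.38 and 10.24 to 11.87 (limma adjusted p = 0.0663). Mx1, Rsad2 and Cmpk2, which act against viruses inside the cell, shifted by 1.002, 1.02 and 0.94 without a call. Isg15, the ubiquitin-like modifier, read 14.18, 13.77 and 13.65 at 48 h and 13.65 at 72 h, at the lower edge of its range. The members clearly below were GTPases that interferon-gamma also induces: Gbp2 went from 12.47, 12.82 and 13.74 to 11.57, Igtp from 12.64, 12.84 and 13.28 to 12.19 and Ifi47 from 12.57, 12.46 and 12.70 to 12.04. None of these was called by limma.

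Receptors and signal carriers of the interferon pathway lay on both sides. Of 23 tested genes, 14 lay above the 48 h range (60.9%, beside 38% of all tested genes) and 7 below it (30.4%, beside 27%), and limma called 2 higher, where it called 0.685% of all tested genes higher. Ifngr1, the ligand-binding chain of the interferon-gamma receptor, read 9.41, 9.59 and 9.39 at 48 h and 11.69 at 72 h (2.22 ± 0.45, limma adjusted p = 0.0286). Stat3, a STAT factor used by interleukins of the IL-6 and IL-10 families as well as interferon, read 11.71, 11.45 and 11.53 and then 13.46 (1.89 ± 0.36, limma adjusted p = 0.0226), and its second probe set differed by 2.09. Both chains of the type I receptor lay above the range without a call, with Ifnar1 shifted by 1.15 and Ifnar2 by 1.08.

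Regulatory factors made up the rest of that pathway. Irf7, the factor that amplifies interferon production, read 9.88, 10.14 and 9.95 at 48 h and 11.78 at 72 h (1.79 ± 0.51, limma adjusted p = 0.0975). Its mean in naive cells was 11.73. The dimmer probe set of Irf7 differed by 0.92, and the mean of both by 1.35. Below the range was Irf4, a factor that scales with antigen receptor signalling, at 13.41, 13.82 and 14.20 against 11.24 (-2.57, limma adjusted p = 0.0663). Feedback inhibitors were below as well: Socs2 went from 10.87, 10.03 and 10.54 to 8.15 and Cish from 10.65, 10.73 and 11.93 to 9.62. Neither Irf4 nor these inhibitors was called.

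**Figure D2:**
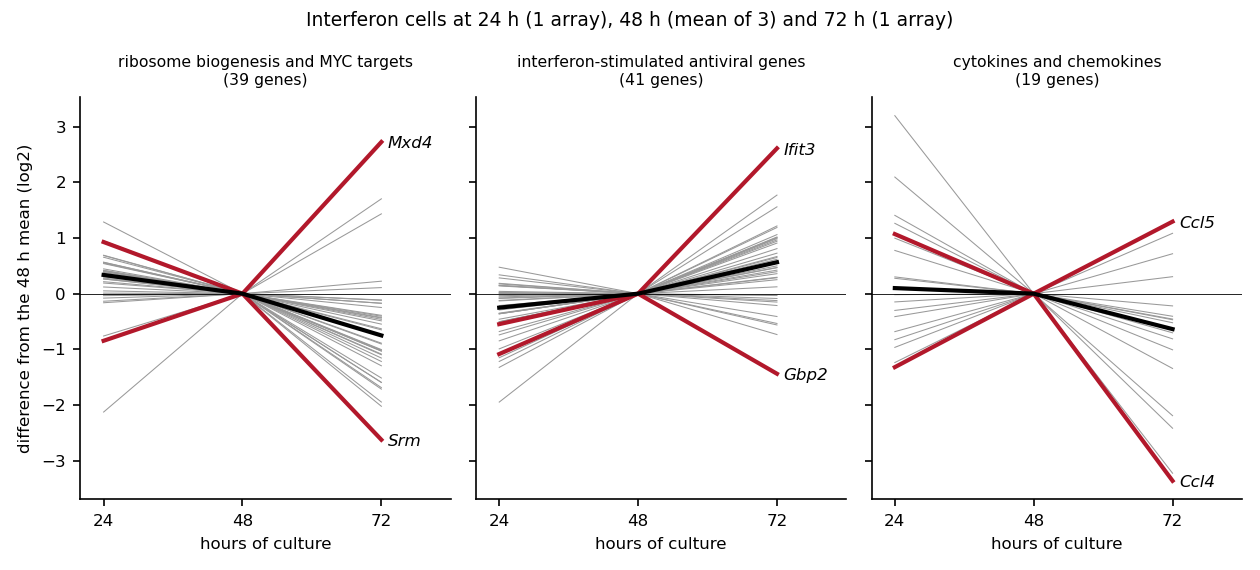
Each thin line is 1 gene of the list named above the panel, as its log2 difference from the mean of the 3 interferon arrays at 48 h, on the 24 h array, at 48 h and on the 72 h array, and the black line joins the list medians. The highest and lowest gene at 72 h in each panel are red and named. Ribosome genes lie at a median of -0.75 at 72 h, antiviral genes at 0.56 and cytokine genes at -0.64.

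Messages for secreted cytokines were mostly below the 48 h range, yet none was called. Of 19 tested cytokine and chemokine genes, 12 lay below (63.2%, beside 27% of all tested genes) and 3 above (15.8%, beside 38%). The median difference was -0.64, with 0 limma calls in either direction. Ccl4, a chemokine that draws other immune cells, read 11.59, 12.53 and 12.95 at 48 h and 8.996 at 72 h, after 13.43 at 24 h. The shift was 10.3-fold downward (-3.36 ± 1.17, limma adjusted p = 0.179). Its relative Ccl3 went from 12.24, 13.18 and 14.20 to 9.87.

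Effector cytokines followed the same direction. Ifng, the gene of interferon-gamma, read 11.33, 10.59 and 11.45 at 48 h and 8.71 at 72 h, 1.89 below the lowest array. Its difference was -2.42 ± 0.75 with a limma adjusted p of 0.131, and the adjusted p ran from 0.0586 to 0.815 over the other settings. Lta, lymphotoxin alpha, went from 12.27, 11.76 and 12.72 to 9.02, and Tnf from 9.03, 8.22 and 9.84 to 6.84. For each of these genes the 72 h array was below all 3 arrays at 48 h. The 3 genes above the range were Ccl5 (9.39, 9.72 and 8.66 against 10.55), Ltb (13.40, 13.03 and 12.98 against 13.85) and Il16 (9.38, 9.58 and 9.58 against 10.60).

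Among the cytotoxic genes a killer cell receptor was called, and the granule proteins named here were not. Klrd1, the receptor chain that pairs with products of the Klrc genes, read 9.09, 10.47 and 9.56 at 48 h and 13.40 at 72 h, against 9.41 at 24 h and a naive mean of 12.72. The rise was 12.96-fold (3.70 ± 0.68, limma adjusted p = 0.0226). Klrc1, the chain that pairs with it, went from 8.61, 9.47 and 8.64 to 11.29 without a call. Klrk1, the activating receptor NKG2D, which works without Klrd1, went from 10.13, 10.24 and 9.57 to 12.82 (limma adjusted p = 0.0708). Of the NK cell markers Ncr1 and Klra7, the ones on the array, Ncr1 stayed inside its range at 6.56 and Klra7 was at 7.99, 0.50 above it. The 2 marker intensities summed to 138 to 167 at 48 h and 256 at 72 h, and their part in the Klr values was not tested.

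Gzmb, the granzyme B gene, read 15.90, 15.83 and 15.31 at 48 h and 15.18 at 72 h (-0.50 ± 0.40, limma adjusted p = 0.692). Prf1, the pore-forming protein that delivers granzymes, read 10.53, 10.43 and 9.52 and then 9.19, a difference of -0.97. Gzma was dim throughout, at 6.57, 6.66 and 6.44 and then 7.56, a difference of 1.01 in the opposite direction. Fasl, the death ligand, lay above its range at 10.20 against 9.07, 9.22 and 8.38. In all, 12 of 19 tested cytotoxic genes lay above the range (63.2%, beside 38% of all tested genes) and 4 below (21.1%, beside 27%). Klrd1 was the 1 called by limma, which called 0.685% of all tested genes higher.

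Of 26 tested homing and adhesion genes, 15 lay above the range (57.7%, beside 38% of all tested genes) and 4 below (15.4%, beside 27%). Limma called 3 of them higher and 0 lower, beside 0.685% and 0.971% of all tested genes. Cxcr4, the receptor of the chemokine CXCL12, read 9.04, 8.29 and 8.07 at 48 h and 11.06 at 72 h (6.05-fold, 2.60 ± 0.59, limma adjusted p = 0.0371), after 6.26 at 24 h. Itgb7, the integrin chain used for gut homing, read 10.95, 11.62 and 11.10 and then 13.26. Cd47, the ligand that protects cells from phagocytosis, read 11.23, 11.17 and 11.29 and then 12.67, and its second probe set differed by 1.44. With the mean of all probe sets Itgb7 differed by 1.67 and Cd47 by 1.44, and neither was called. All 3 genes were clear of their 48 h ranges by over 1 log2 unit.

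Some receptors lay outside the range without a call. Ccr7, the receptor for entry into lymph nodes, read 12.46, 11.999 and 11.87 at 48 h and 13.49 at 72 h (1.38 ± 0.59, limma adjusted p = 0.290). Klf2, the factor that maintains such receptors, read 7.14, 7.33 and 7.35 and then 9.31, and its target S1pr1 7.24, 7.11 and 6.62 and then 8.06. Il7r, a chain of the IL-7 receptor that sustains resting T cells, read 9.91, 9.31 and 8.57 and then 11.34 (2.07 ± 0.53, limma adjusted p = 0.0593). Il2ra, the inducible IL-2 receptor chain, lay on the other side, at 10.12, 9.89 and 10.64 and then 8.85. Of 17 cytokine receptor genes 11 lay above the range (64.7%, beside 38% of all tested genes) and 3 below (17.6%, beside 27%), with 0 limma calls.

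Transcription factors of lymphocyte fate lay above the range in 21 of 32 cases (65.6%, beside 38% of all tested genes) and below it in 2 (6.25%, beside 27%). Limma called 2 of the 32, both higher, where it called 0.685% of all tested genes higher. Myb, a factor of progenitor and memory cells, read 10.95, 11.16 and 10.83 at 48 h and 13.18 at 72 h (2.20 ± 0.50, limma adjusted p = 0.0376). Its dimmer probe set differed by only 0.33, and with the mean of both Myb differed by 1.26 and was not called (limma adjusted p = 0.114). Tcf12, an E protein, read 10.89, 11.19 and 11.34 and then 12.73 (1.59 ± 0.35, limma adjusted p = 0.0355). Eomes, a T-box factor of effector and memory CD8 cells, was at 9.93, 10.08 and 10.29 and then 9.50, and its dimmer probe set had the opposite sign at 0.02. Of 25 naive and quiescence genes 16 lay above the range (64%, beside 38%) and 5 below (20%, beside 27%), and Ypel3, a growth-restraining protein, was the 1 that limma called (9.54, 10.02 and 9.31 against 11.77, 2.15 ± 0.48, limma adjusted p = 0.0355).

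The survival gene Bcl2 did not leave its range, at 11.03, 11.48 and 11.78 at 48 h and 11.34 at 72 h. Proteins of the S100, annexin and galectin families, which bind calcium, membranes or sugars, had 18 of 21 tested members above the range (85.7%, beside 38% of all tested genes) and 1 below, the highest share of the 25 theme lists. Their median difference was 0.82 and limma called 0. S100a6 went from 8.35, 7.86 and 7.14 to 9.78 and Lgals3 from 9.11, 10.48 and 9.89 to 11.69.

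**Figure D3:**
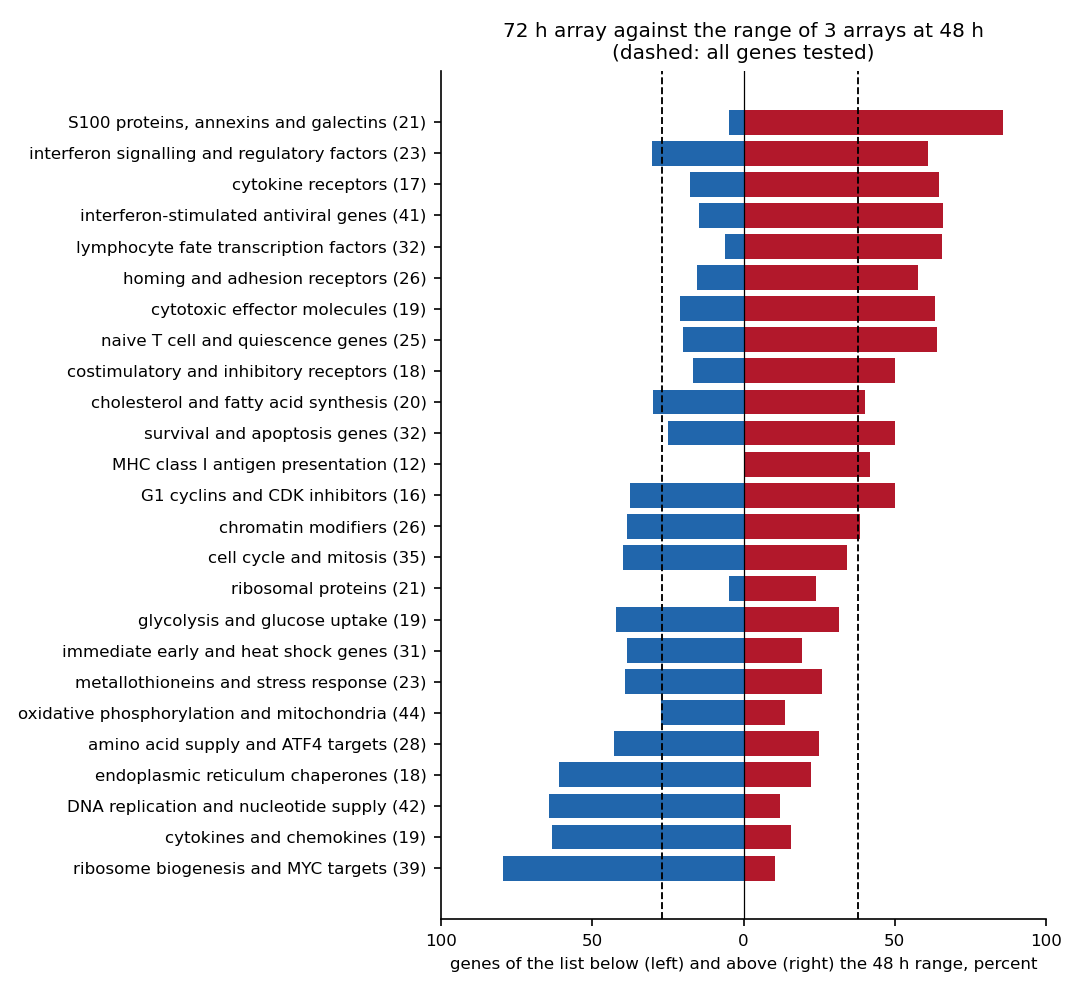
Bars give, for each of the 25 theme lists (number of tested genes in brackets), the percent of genes whose 72 h value lay above (red, right) or below (blue, left) the range of the 3 interferon arrays at 48 h, ordered by the median difference. The dashed lines are the shares over all 6279 tested genes, 38% above and 27% below, and the ribosome biogenesis list reaches 79.5% below.

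Genes that copy DNA were mostly below the range by small amounts. Of 42 tested genes of DNA replication and nucleotide supply, 27 lay below (64.3%, beside 27% of all tested genes) and 5 above (11.9%, beside 38%), with a median difference of -0.43 and 0 limma calls. The origin subunit Orc1 read 9.98, 9.66 and 9.96 at 48 h and 8.65 at 72 h (-1.22 ± 0.44, limma adjusted p = 0.203). Rrm2, the ribonucleotide reductase subunit, read 12.67, 12.58 and 12.51 and then 11.41, and the loading factor Cdc6 was 1.01 below its lowest 48 h array, at 10.90. Of 35 genes of the cell cycle and mitosis, 14 lay below (40%, beside 27%) and 12 above (34.3%, beside 38%), with a median of 0.01. Mki67, the proliferation marker, was at 11.70, 12.29 and 12.22 and then 12.38, and the mitotic kinase Cdk1 at 12.73, 12.70 and 12.71 and then 12.06.

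Stress and metabolic genes held a few called members. Mt2, a metallothionein that binds zinc, read 11.01, 11.77 and 10.71 at 48 h and 14.52 at 72 h (10.2-fold, 3.36 ± 0.60, limma adjusted p = 0.0199), after 9.83 at 24 h. Its twin Mt1 read 11.11, 11.35 and 9.65 and then 14.05, with a limma adjusted p of 0.0663. Txnrd1, thioredoxin reductase, fell 4.29-fold from 11.82, 12.33 and 12.56 to 10.14 (limma adjusted p = 0.0484). Hsp90aa1, the inducible cytosolic chaperone, fell from 15.40, 15.46 and 15.07 to 14.07 on its brightest probe set. The other set differed by -0.12, and the mean of both, at -0.68, was not called (limma adjusted p = 0.371). Idi1, an enzyme of isoprenoid synthesis, fell from 12.86, 13.21 and 12.89 to 11.85. Glycolysis genes lay on both sides, 6 above (31.6%, beside 38% of all tested genes) and 8 below (42.1%, beside 27%) of 19, with a median of -0.01 and 0 limma calls.

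The remaining large rises and falls named by rule came from no single list. Tnfaip3, an inhibitor of NF-kappaB signalling, read 8.33, 6.59 and 8.67 at 48 h and 11.05 at 72 h (9.10-fold, 3.19 ± 0.61, limma adjusted p = 0.0226). Pik3r1, the regulatory subunit of phosphoinositide 3-kinase, read 8.08, 8.25 and 8.45 and then 10.70 (2.43 ± 0.36, limma adjusted p = 0.0108). Smpdl3a, a phosphodiesterase related to acid sphingomyelinase, read 8.57, 8.57 and 7.89 and then 11.21. Gsn, the actin-severing protein gelsolin, read 8.16, 8.02 and 8.53 and then 10.99. For all 4 genes the 72 h array was over 2 log2 units above the highest 48 h array.

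The other rises among the 12 largest were those of Pglyrp1, a peptidoglycan recognition protein (2.99), Tmem71 (2.89), Vps37b, a component of endosomal sorting (2.38), and Prxl2a, a peroxiredoxin-like protein (2.35). The second probe set of Prxl2a differed by 0.59, and the mean of both, 1.47, was not called. Among falls, Polr2l, a subunit shared by the RNA polymerases, read 12.27, 12.16 and 12.28 at 48 h and 10.62 at 72 h (-1.62 ± 0.25, limma adjusted p = 0.0108). Nop16, a nucleolar protein of large subunit assembly, read 12.88, 12.59 and 12.91 and then 11.004. Cse1l, the exporter that recycles importin alpha, fell by 1.66, Dtymk, the thymidylate kinase, by 1.65 (0.55 lower on its second probe set and not called with the mean of both), and Epop, a partner of Polycomb repressive complexes, by 1.65. Blvra, biliverdin reductase, fell by 1.71 and the tetraspanin Tspan4 by 1.61.

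**Figure D4:**
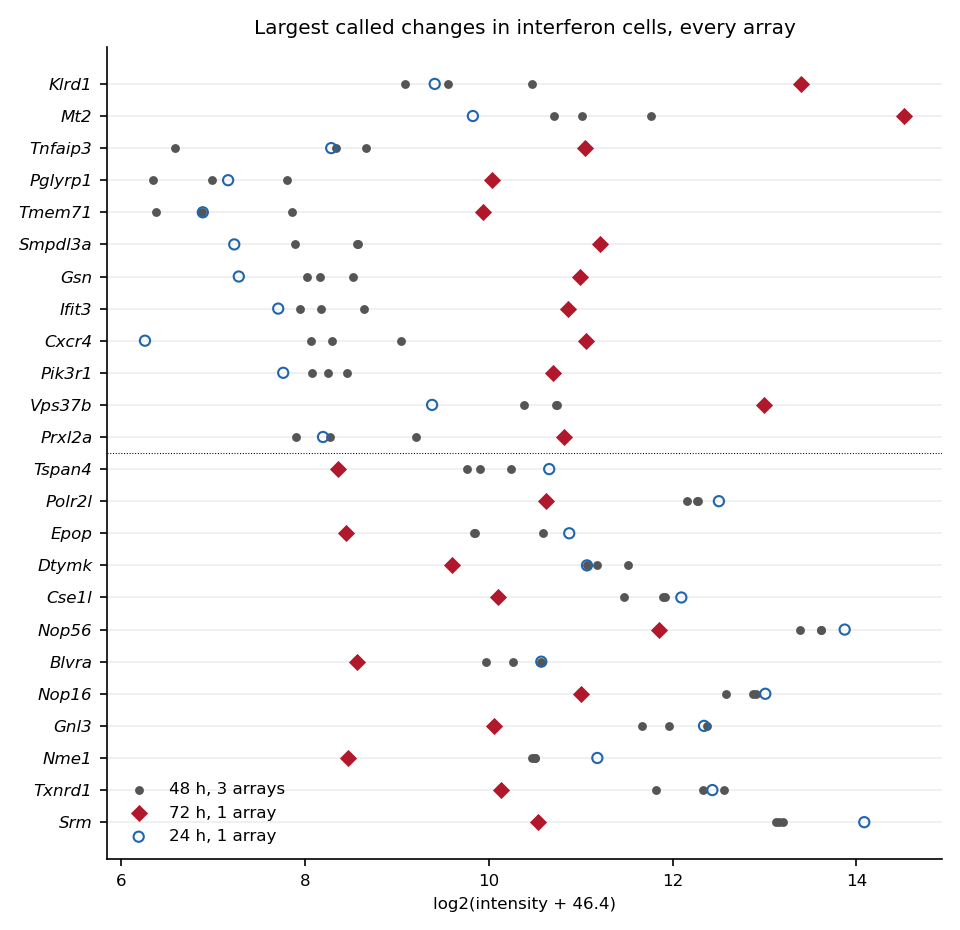
For the 12 largest called rises (above the dotted line) and 12 largest called falls (below it), each gene's value as log2(intensity + 46.4) is shown on every interferon array: 3 at 48 h (grey), 1 at 72 h (red) and 1 at 24 h (blue circle). In all 24 genes the 72 h point lies outside the grey points, and for Srm it moves from 13.13 or more to 10.54.

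The same interval in the other cultures shows how far these shifts were shared. From 48 h to 72 h limma called 184 genes higher (2.93%) and 241 lower (3.84%) with Ag-B7 alone, 6.77% of tested genes together, and 101 higher (1.61%) and 206 lower (3.28%) with IL-12, together 4.89%. Of the 43 rises in interferon cells, 40 lay above the 48 h range with Ag-B7 alone and 40 with IL-12. Over all tested genes 36.3% and 40.9% lay above in those cultures, and 63.9% and 67% of the genes that were above with interferon. Of the 61 falls, 59 and 61 lay below, where 24.9% and 26.6% of all tested genes lay, and 62.3% and 63% of those below with interferon. None of the 104 lay on the opposite side in either culture. Across the 6279 genes, which are not independent, the differences with interferon correlated at 0.68 with those of Ag-B7 alone and at 0.65 with those of IL-12.

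The difference between cultures was tested directly. For the change with interferon minus the change with Ag-B7 alone limma called 0 of 6279 genes (121 at an unadjusted p under 0.05, 1.93%), and for interferon minus IL-12 it also called 0 (103 unadjusted, 1.64%). This does not show that the cultures changed alike, since each change rests on 1 array at 72 h. Srm differed by -2.62 with interferon, -3.16 with Ag-B7 alone and -2.87 with IL-12. The ribosome biogenesis list as a whole had medians of -0.75, -0.96 and -0.85.

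Several named genes were shifted further with interferon than in the other cultures, none past the test of the difference. Ifit3, Mt2 and Blvra were among the 12 largest called rises or falls with interferon. That choice favours smaller shifts of these genes in the other cultures. Ifit3 differed by 2.61 with interferon, 0.63 with Ag-B7 alone and 0.59 with IL-12, a gap of 1.98 ± 0.76 and 2.02 ± 0.78. Irf7 and Usp18, which also respond to interferon, were shifted further with Ag-B7 alone. On its brightest probe set Irf7 differed by 1.79 with interferon, 2.81 with Ag-B7 alone and 0.71 with IL-12. Usp18 differed by 1.06, 2.21 and 0.04. Mt2 differed by 3.36, 1.04 and 2.45, and its gap to Ag-B7 alone was 2.32 ± 0.83. Blvra fell with interferon by 1.71, and differed by 0.02 with Ag-B7 alone and -0.47 with IL-12. Ifng differed by -2.42 with interferon, -0.50 with Ag-B7 alone and -0.997 with IL-12, and its gap to Ag-B7 alone was -1.92 ± 1.04. In each case the limma adjusted p of the gap was above 0.9.

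Gene groups can be set side by side in the same way. Antiviral genes had median differences of 0.56 with interferon, 0.95 with Ag-B7 alone and 0.34 with IL-12. Limma called 1, 8 and 3 of the 41 higher, beside 0.685%, 2.93% and 1.61% of all tested genes. DNA replication genes had medians of -0.43, -0.85 and -0.96, with 0, 14 and 13 called lower. Glycolysis genes had medians of -0.01, -0.83 and 0.19, with 0, 6 and 0 called lower. Over all tested genes limma called 0.971%, 3.84% and 3.28% lower, and the medians were 0.10, 0.17 and 0.16. The cultures thus differed in how many genes were called at all, and Ag-B7 alone had 4 arrays at 48 h. Pfkl, a phosphofructokinase, read 13.12, 13.02 and 13.07 and then 13.07 with interferon and differed by -1.64 with Ag-B7 alone, a gap of 1.63 ± 0.45 that had an unadjusted limma p of 0.00232 and an adjusted p of 0.999. Pfkl was chosen after its values were seen.

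**Figure D5:**
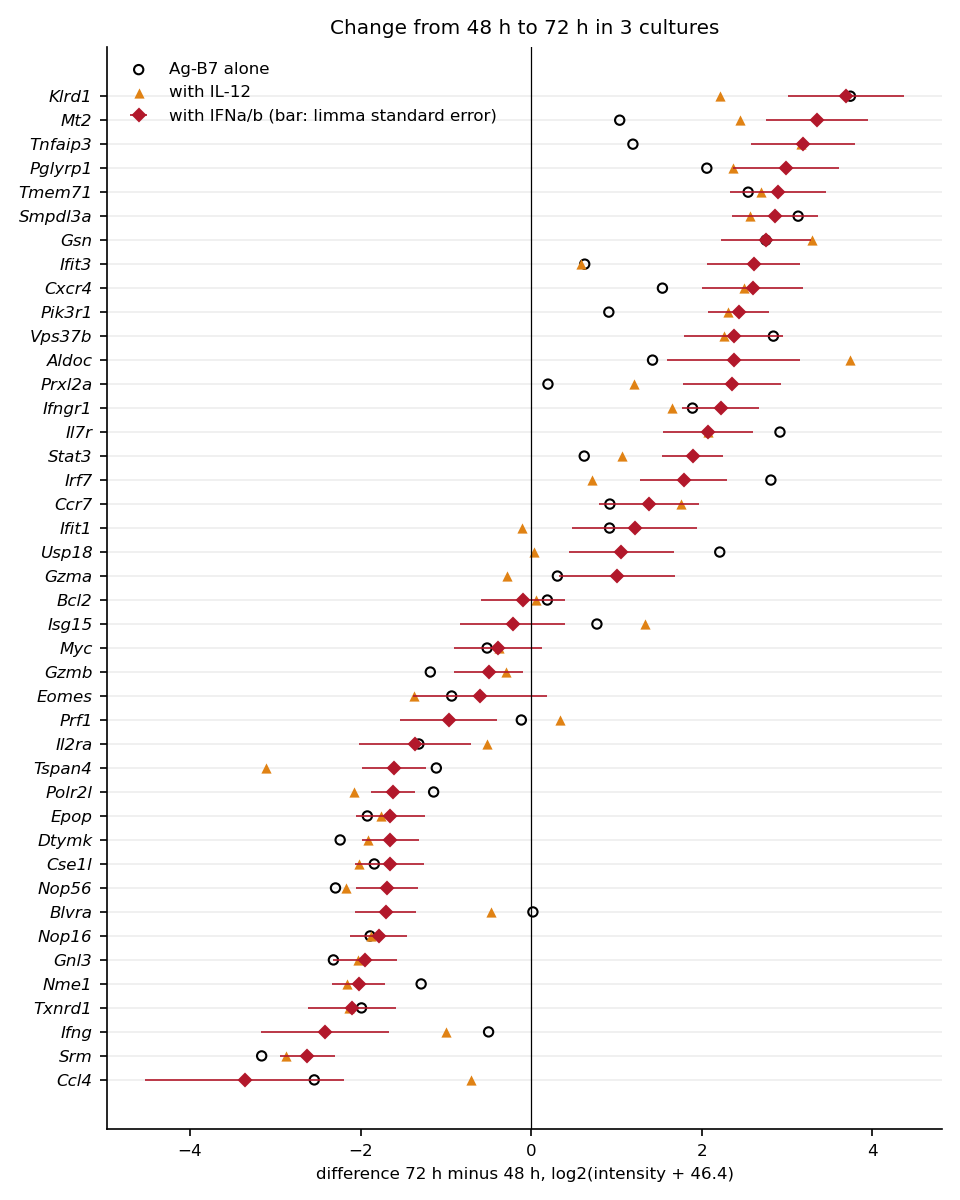
Difference from 48 h to 72 h, as log2(intensity + 46.4), for named genes in cells given Ag-B7 with IFNa/b (red, with the limma standard error), Ag-B7 alone (open circles) and Ag-B7 with IL-12 (triangles). Most red points have circles and triangles on the same side of 0, as for Srm at -2.62, -3.16 and -2.87. Ifit3 sits at 2.61 beside 0.63 and 0.59, and Irf7 at 1.79 beside 2.81 and 0.71.

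The arrays differed in ways that touch these values. All 20 arrays had been scaled to 1 trimmed mean, but the median intensity was 317 on the interferon array at 72 h and 244 to 285 at 48 h. The median difference of all tested genes was 0.10, and was 0.01 with quantile normalization, -0.11 with median centring and 0.29 when scaled to the spiked-in controls. With median centring 1483 genes lay above the range and 2544 below, in place of 2385 and 1693. The medians of the ribosome biogenesis, DNA replication, cytokine and antiviral lists kept their signs under all 3. Those of glycolysis, mitosis, mitochondrial and ribosomal protein genes did not. The 48 h arrays correlated at 0.959 to 0.966 with each other and at 0.924 to 0.927 with the 72 h array, and the actin 3' to 5' ratio was 1.00 to 1.11 and then 1.12. On the 3 naive arrays this ratio was 1.13, 2.06 and 1.61. Naive replicate 2 correlated at 0.535 to 0.586 with the interferon arrays at 48 h. The naive means given here rest on these uneven arrays.

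All 11 CD8 T cell identity genes on the array were above the 40th percentile on all 4 arrays, with Cd8a at 13.11, 13.27 and 13.27 and then 13.24. Of these genes 6 lay above the 48 h range (54.5%, beside 38% of all tested genes) and 0 below (beside 27%), and Cd3d differed by 0.94. Their intensities summed to 70217 to 89736 at 48 h and 102920 at 72 h. Of 12 B cell markers on the array 6 to 7 passed the 40th percentile at 48 h and 8 at 72 h. The B cell marker intensities summed to 7562 to 9628 and then 14646, mostly from Ighm, which was at 12.71, 12.63 and 12.05 and then 13.40. Of 15 myeloid and dendritic markers 4 to 6 passed at 48 h and 4 at 72 h, with sums of 4385 to 4533 and then 8004, led by Ctss at 11.39, 11.08 and 11.62 and then 12.56. Of the 9 tested B cell markers 6 lay above the range (66.7%, beside 38% of all tested genes) and 0 below (beside 27%), with 0 limma calls. Among those above were Cd79b, which differed by 1.03, and Pax5, by 1.01. Of the 8 tested myeloid markers 3 lay above (37.5%, near the 38% of all tested genes) and 0 below (beside 27%). Other defining markers, such as Cd22, Ebf1, Lyz2 and Adgre1, were too dim to be tested, and Lyz2 read 6.36, 6.67 and 5.82 and then 5.77. The part of such cells in the results was not tested.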

How the data were processed

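The deposited intensity values are 1 signal for each of 12488 probe sets on an Affymetrix array per sample, on a linear scale, made with MAS5 per the submitters' processing notes, which give no version. The scaling target is not known here. Each array had the same trimmed mean, so differences are relative to the total signal of an array. Gene names came from the platform annotation, with 10833 probe sets holding 1 symbol, and the brightest probe set stood for a gene. Values became log2(value + 46.4), the constant being the median of the arrays' 20th percentiles. Genes above the 40th percentile on at least 3 of 13 replicated arrays were tested, 6279 in all.

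The test was limma 3.58.1 in R 4.3.3 with group means over 16 arrays (naive, Ag-B7, IL-12 and IFNa/b at 48 h, and 3 single arrays at 72 h), moderated variances with a trend, two-sided, called at an adjusted p below 0.05. The residual degrees of freedom were 9 and the median residual SD was 0.37. Errors after ± are limma standard errors. The number of arrays limits the precision. The test was also run on simulated data. There the 72 h array was given the spread of the replicated groups, so that assumption was not checked.

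Named genes were the 12 largest called rises and falls with a brighter side above the median gene, up to 4 called members of each of 25 theme lists or else the member with the largest difference, and a set of effector, memory and interferon genes. The members, lists and rule were chosen with earlier results of these data known. Other scalings, constants, filters, probe set rules, arrays left out and a replicate block were tried. Replicate numbers did not pair the interferon arrays: deviations of same-numbered arrays correlated at -0.12 to 0.08 with those of the other cultures, while Ag-B7 and IL-12 arrays of the same number, which also enter the residual variance, correlated at 0.22 to 0.36. Probe sets of close relatives (Klr, Mt, Ifit, Gzm, Gbp) may not tell genes apart.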

Additional observations from a re-analysis of the deposited data

Results flagged for a closer look

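Isg15 was at opposite sides of the 48 h range in 2 cultures. With interferon its 72 h value lay below the lowest array at 48 h, by under 0.01, and with Ag-B7 alone it lay 0.30 above the highest. The change with interferon minus the change with Ag-B7 alone was -0.99 ± 0.86 (log2, limma adjusted p = 0.999), so the difference did not pass the test.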

How the results depend on the processing

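The number of limma calls moved with the processing, and the cause was not tested. In place of 43 higher and 61 lower, median centring gave 2 and 6, spike-in scaling 3 and 0, and variances without a trend 2 and 2. Leaving out 1 array at 48 h gave 5 to 8 higher and 7 to 8 lower, and averaging all probe sets of a gene gave 33 and 39. A fit without the naive arrays gave 129 and 184. With settings added after seeing the data, that fit gave 32 higher and 161 lower once arrays were median centred, and 20 higher and 1 lower once scaled to spike-ins. The replicate block, whose numbers pair no interferon arrays but do go with shared deviations of the Ag-B7 and IL-12 arrays, gave 28 and 40, and 13 of the 33 called named genes lost the call, among them Ifit3, Cxcr4 and Myb. Counts outside the range were 1483 above and 2544 below under median centring, 809 below under spike-in scaling, and 177 and 128 when 1 log2 unit was asked for, a rule added later. The tests of the difference between cultures called 0 genes in every setting run. None of the 33 called named genes reversed, which many of the settings did not allow. The uncalled Bcl2 turned from -0.10 to 0.10 under spike-in scaling with and without naive arrays, to 0.17 under the replicate block, and ran from -0.29 to 0.077 leaving out 1 array at 48 h. Each value rests on 1 array at 72 h.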

Other observations

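Other called genes are given here as single genes, chosen after their values were seen. Falls included the mitochondrial outer membrane channel Tomm40 (-1.57) and the mitochondrial import components Timm23 (-1.26), Timm17a (-1.20) and Timm8a1 (-1.58). They also included further factors of ribosome assembly outside the list, Nip7 (-1.60), Nhp2 (-1.59), Nifk (-1.57) and Imp4 (-1.15), and Ubtf, an activator of ribosomal RNA transcription (-1.16). The proteasome subunits Psmd7 and Psmd1 fell by 1.503 and 1.34, and the purine synthesis enzyme Gart by 1.603.

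Rises outside the lists included Acss1, a mitochondrial acetyl-CoA synthetase (2.19, limma adjusted p = 0.0108), the small DNA polymerase delta subunit Pold4 (2.02), and the immune GTPase Gimap1 (1.21). The B cell surface protein Cd72 rose by 2.31, beside uncalled differences of 1.03 for Cd79b, 1.01 for Pax5 and 0.94 for Ighm and a summed B cell marker intensity of 7562 to 9628 at 48 h and 14646 at 72 h. The part of B cells in it was not tested. The purinergic receptor chain P2rx6 differed by 2.37 with interferon, -0.04 with Ag-B7 alone and -0.35 with IL-12. Art1 fell by 2.05 with interferon and differed by 0.17 with Ag-B7 alone. With IL-12 it lay below the 48 h range, as did all 61 called falls. The difference between cultures was not called for P2rx6 or Art1.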
